A study of Homo sapiens with 16 samples.

Results

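The YAP/TAZ-TEAD genes described here are 10 of the 14857 genes with values. They were chosen by name, and all 10 were found under these symbols: the co-activators YAP1 and WWTR1, the DNA-binding factors TEAD1 and TEAD4, and the target genes CTGF, CYR61, ANKRD1, AMOTL2, AXL and LATS2. In the Hippo pathway, the kinases STK3 and STK4 (MST2 and MST1) activate the kinases LATS1 and LATS2, which phosphorylate YAP (product of YAP1) and TAZ (product of WWTR1) and hold them in the cytoplasm or send them to degradation. Unphosphorylated YAP and TAZ enter the nucleus, bind TEAD factors and switch on genes such as CTGF and CYR61, whose mRNA levels are widely used as readouts of the pathway. Several targets, among them LATS2 and AMOTL2, act back on YAP and TAZ as inhibitors. Much of this control acts on protein phosphorylation and location, which mRNA levels do not measure.

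The cells were MDA-MB-231, a human triple-negative breast cancer line that is known to carry an inactivating mutation of NF2, an upstream Hippo regulator. The lines use a tet-off switch, so that the plasmid gene is silent while doxycycline is present, and all were grown with G418 and hygromycin B. TTP_E11 and TTP_H3 are clones with tristetraprolin (TTP, product of ZFP36), an RNA-binding protein that binds AU-rich elements in 3′ UTRs and promotes mRNA decay. EV_A and EV_B are clones with an empty vector, and each of the 4 clones gave 4 libraries. Doxycycline at 2 µg/mL is stated in the maintenance of TTP cells alone, and it was removed, with the selection drugs, for 24 h or longer before an experiment. TTP, past doxycycline and differences between single clones therefore cannot be told apart by arm. Each arm rests on 2 clones, so the error behind a p-value is that of repeated cultures, and variation from clone to clone is not part of it.

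The titles of 7 of the 8 libraries named TTP call them EV, so groups were taken from the library names. Values are normalized counts, the reads of a gene divided by a size factor of the library, and log2 changes are taken after adding 1. ZFP36 averaged 10480 ± 337 normalized counts in TTP_E11 and 14370 ± 811 in TTP_H3, against 258.6 ± 26.3 in EV_A and 222.1 ± 8.8 in EV_B (SD, n = 4 each), so that the TTP-named libraries are the high ones. The mesenchymal markers VIM and CD44 had clone means of 22150 to 23170 and 10050 to 10220 normalized counts in TTP clones, against 32200 to 32740 and 14070 to 15640 in EV clones, while ESR1, PGR and CDH1 were not analysed here. The third mesenchymal marker, MSN, had clone means of 14100 and 14520 in TTP clones, against 13170 and 14900 in EV clones, and did not pass (log2 change 0.03, limma adjusted p = 0.239). The epithelial marker EPCAM had 247.2 and 236.6 in TTP clones, against 299.8 and 264.9 in EV clones (log2 change -0.22, limma adjusted p = 0.00246). Its TTP and EV libraries overlapped. Against EV_B alone EPCAM did not pass, at -0.09 in TTP_E11 and -0.16 in TTP_H3 (limma adjusted p of 0.381 and 0.118). ERBB2 had clone means of 2714 to 2862 in TTP clones, against 2173 to 2307 in EV clones. Of 9 markers of immune, endothelial and fibroblast or smooth muscle cells 3 were measured, all low: CD68 had clone means of 22.36 and 25.76 in TTP clones, against 21.41 and 22.48 in EV clones, PDGFRB 199.3 and 225.1 against 122.8 and 210.5, and ACTA2 78.02 and 97.3 against 40.28 and 55.77. ACTA2 rose in TTP clones (limma adjusted p = 4.52e-05), but its TTP and EV libraries overlapped. In TTP_H3 against EV_A alone ACTA2 did not pass, at a log2 change of 0.49 (limma adjusted p = 0.0754). PDGFRB passed against both EV clones (limma adjusted p = 0.0201) but turned on a low EV_B, with log2 changes of -0.08 in TTP_E11 and 0.05 in TTP_H3 against EV_A (limma adjusted p of 0.747 and 0.851). The part of these markers in the results was not tested. Libraries held 14380767 to 22066098 reads on the listed genes, and the member with the fewest reads in any library was TEAD4, with 313. Of the 24 within-clone pairs, those with TTP_H3 replicate 3 differed most, with a chi-square per degree of freedom of 9.25 to 12.5, followed by those with EV_B replicate 4 at 5.87 to 6.35, against 1.55 to 3.63 in the other 18 pairs. TTP_H3 replicate 3 was the lowest of its clone in 8 members and the highest in CTGF and WWTR1. For LATS2 and for the members that differed between TTP clones, results without it are given as well. Results of single genes outside the members are not given without it. Without TTP_H3 replicate 3 and EV_B replicate 4, the same numbers of members rose and fell as given next, 4 and 5. Over all genes, 10591 of 14857 rose or fell there, in place of 10405. By the stricter count given next, 8 members passed there in place of 7. The share of all genes passing that count there was not obtained, so the 8 have no background.

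The members did not move one way. Between TTP and EV clones, 4 members rose (CTGF, TEAD4, ANKRD1 and LATS2), 5 fell (WWTR1, AMOTL2, CYR61, YAP1 and AXL, the last at 0.00 after quantile normalization), and TEAD1 did not pass (limma, Benjamini-Hochberg adjusted p under 0.05 over all genes). Of all genes, 35.4% rose and 34.6% fell, 70% in all, which is the background for a count of 9 members in 10. A stricter count asked that each TTP clone differ from each EV clone in the same direction. By it 3 members were higher (CTGF, TEAD4 and ANKRD1) and 4 lower (YAP1, WWTR1, CYR61 and AMOTL2), against 38.5% of all genes (19% higher and 19.5% lower). In 6 of 10 members the 8 TTP libraries did not overlap the 8 EV libraries, against 31.8% of all genes. The median log2 change of the 10 members was -0.12, against 0 over all genes. Set against both EV clones, which the 2 contrasts share, TTP_E11 had 4 members higher and 5 lower (all genes: 32.6% and 32%, 64.6% in all), and TTP_H3 had 3 higher and 5 lower (all genes: 32.7% and 32%, 64.7% in all). In the table of the authors' own comparison, the authors' deposited adjusted p was under 0.05 for the same 9 members, 4 higher and 5 lower, against 63.7% of all genes (32% higher and 31.7% lower), and 0.312 for TEAD1.

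**Figure D1:**
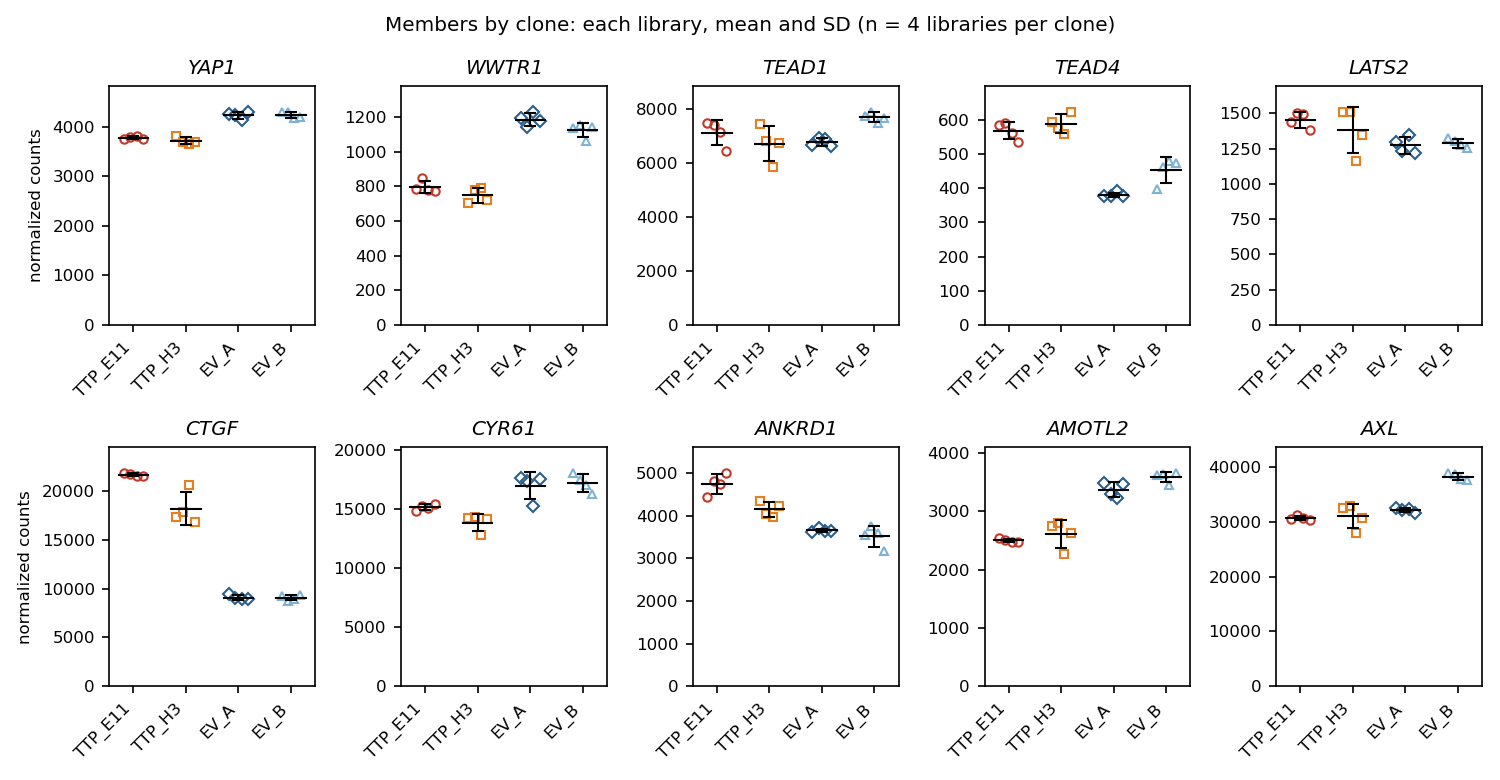
Normalized counts of the 10 members (linear axes from 0), with 1 point for each library and bars for the mean and SD of the 4 libraries of TTP_E11, TTP_H3, EV_A and EV_B. CTGF, TEAD4 and ANKRD1 have every TTP point above every EV point, YAP1, WWTR1 and AMOTL2 have every TTP point below, and the points of TEAD1, CYR61, AXL and LATS2 overlap.

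Both co-activators were lower in TTP clones. YAP1 (GRCh38 chr11:102110461-102233423, plus strand; positions of genes are from GENCODE 29) stood at 3748, 3781, 3821 and 3750 normalized counts in TTP_E11 and 3817, 3685, 3652 and 3697 in TTP_H3, against 4262, 4234, 4133 and 4286 in EV_A and 4286, 4304, 4177 and 4186 in EV_B. Every TTP library was below every EV library. The log2 change of YAP1 was -0.18 (SE 0.0214, limma adjusted p = 7.64e-09), a ratio of 0.884, so the difference was small and exceeded the spread between libraries. After quantile normalization it was -0.05 (limma adjusted p = 0.0242), and with reads summed per clone it did not pass, at -0.17 (edgeR adjusted p = 0.118). In bulk RNA, a lower level in every cell and fewer cells with the transcript cannot be told apart. WWTR1 (chr3:149517235-149736714, minus strand) encodes TAZ, the paralogue of YAP. It stood at 786.1, 848.5, 777.4 and 775.1 normalized counts in TTP_E11 and 705.5, 780.1, 793 and 719.4 in TTP_H3, against 1193, 1146, 1233 and 1176 in EV_A and 1139, 1156, 1063 and 1144 in EV_B. The groups were again separate, and the log2 change of -0.58 (SE 0.0344, limma adjusted p = 4.29e-16) corresponds to a ratio of 0.668. Within a library, the reads of WWTR1 over those of YAP1 gave 0.211 ± 0.0091 in TTP_E11 and 0.202 ± 0.015 in TTP_H3, against 0.281 ± 0.012 in EV_A and 0.266 ± 0.0082 in EV_B (SD, n = 4 each). This ratio needs no scaling between libraries and shows that WWTR1 was lower relative to YAP1 in TTP clones. Antisense genes overlap exons of YAP1 and WWTR1 on the other strand, and reads of the pairs cannot be told apart if strand was not kept, which the labels do not state.

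Since TTP binds AU-rich elements, the 3′ UTRs of the members were searched on the sense strand for AUUUA and for the longer UAUUUAU, in the longest 3′ UTR of each gene in GENCODE 29 on GRCh38. Of 12559 genes, 72.9% held AUUUA and 35.2% held UAUUUAU. WWTR1 held 12 AUUUA and 3 UAUUUAU in 3570 bases, and YAP1 held 9 AUUUA and 0 UAUUUAU in 3483 bases. CTGF held 3 and 0 in 1088 bases, CYR61 5 and 2 in 920 bases, ANKRD1 4 and 3 in 770 bases, and AMOTL2 2 and 0 in 1831 bases. LATS2 held 6 and 1 in 1838 bases and TEAD1 17 and 2 in 7261 bases, while TEAD4 and AXL held neither, in 195 and 1862 bases. The median length over the genes searched was 1350 bases, and these counts are not scaled to length. The long motif was thus present in members that were lower in TTP clones (WWTR1, CYR61), in members that were higher (ANKRD1, LATS2) and in one that did not pass (TEAD1). It was absent from others that were lower (YAP1, AMOTL2, AXL) and from others that were higher (CTGF, TEAD4). The following 29-base stretches show the sites of lower genes (WWTR1 and CYR61) and of a higher gene (ANKRD1), with UAUUUAU in capitals. Those of LATS2 and TEAD1 are not shown. They lie at chr3:149520198-149520226, chr3:149519107-149519135 and chr3:149517983-149518011 (minus strand) for WWTR1, at chr1:85583559-85583587 and chr1:85583653-85583681 (plus strand) for CYR61, and at chr10:90912757-90912785, chr10:90912668-90912696 and chr10:90912644-90912672 (minus strand) for ANKRD1. A match is a description of sequence; binding of TTP was not measured.
WWTR1 site 1: uuauuagucugUAUUUAUaaaggcacaca
WWTR1 site 2: ugaacuaauauUAUUUAUaaucuaugaau
WWTR1 site 3: ugauaaggugcUAUUUAUacuauauuucu
CYR61 site 1: acugaauguuuUAUUUAUcaaaauguagc
CYR61 site 2: ugaaaagauuuUAUUUAUggaauuaacca
ANKRD1 site 1: aaucuaguuucUAUUUAUcaacguguugu
ANKRD1 site 2: agugaaacucuUAUUUAUuuuuauguauu
ANKRD1 site 3: guauuccuguuUAUUUAUuuacugccacg

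Of the DNA-binding partners, TEAD4 was higher in TTP clones and TEAD1 did not pass. TEAD4 (chr12:2959330-3040673, plus strand) stood at 586.8, 590.5, 561.2 and 536.4 normalized counts in TTP_E11 and 593.5, 577.3, 559.6 and 624.7 in TTP_H3, against 377.5, 377.8, 390.6 and 376.3 in EV_A and 398.3, 462.7, 479.5 and 473.9 in EV_B. All TTP libraries lay above all EV libraries, although EV_B itself was above EV_A by a log2 change of 0.25 (limma adjusted p = 0.00172). The log2 change of TEAD4 was 0.48 (SE 0.0436, limma adjusted p = 1.65e-11), 1.39-fold. TEAD1 (chr11:12674591-12944483, plus strand) was the more abundant factor, with 7471, 7420, 7156 and 6449 normalized counts in TTP_E11 and 7460, 6817, 5866 and 6726 in TTP_H3, against 6670, 6907, 6874 and 6624 in EV_A and 7751, 7902, 7467 and 7661 in EV_B. Its TTP libraries spanned those of EV_A and mostly lay below EV_B, and its log2 change was -0.06 (95% interval -0.15 to 0.02, limma adjusted p = 0.16). EV_B exceeded EV_A in TEAD1 by 0.19 (limma adjusted p = 0.016), so the answer turned on the control: against EV_B alone the change was -0.16 (limma adjusted p = 0.00966). The reads of TEAD4 over those of TEAD1 gave 0.0799 ± 0.0022 in TTP_E11 and 0.0882 ± 0.0073 in TTP_H3, against 0.0562 ± 0.001 in EV_A and 0.059 ± 0.0056 in EV_B (SD, n = 4 each).

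CTGF (chr6:131948176-131951373, minus strand), a secreted matricellular protein (CCN2) and a widely used YAP readout, had the largest change of the 10. It stood at 21820, 21760, 21510 and 21520 normalized counts in TTP_E11 and 17310, 17880, 20640 and 16820 in TTP_H3, against 9458, 9006, 8932 and 8899 in EV_A and 9229, 8774, 8887 and 9363 in EV_B. The 2 EV clones had nearly the same levels, and the lowest TTP library was above the highest EV library. The log2 change was 1.13 (SE 0.0304, limma adjusted p = 4.68e-20), 2.18-fold, and 5.17% of all genes had a larger absolute change. CYR61 (CCN1; chr1:85580761-85583962, plus strand) is its close paralogue, secreted and also a standard YAP target, and it moved the other way. It stood at 14890, 15310, 15100 and 15400 normalized counts in TTP_E11 and 14250, 14330, 12780 and 14130 in TTP_H3, against 17680, 17430, 15290 and 17560 in EV_A and 18060, 17450, 17050 and 16300 in EV_B. Its libraries overlapped through EV_A replicate 3 alone, and its log2 change was -0.24 (SE 0.0301, limma adjusted p = 2.17e-07), or -0.12 (limma adjusted p = 0.000256) after quantile normalization. With reads summed per clone it did not pass, at -0.23 (edgeR adjusted p = 0.107). The reads of CTGF over those of CYR61 in a library gave 1.43 ± 0.03 in TTP_E11 and 1.32 ± 0.2 in TTP_H3, against 0.536 ± 0.034 in EV_A and 0.527 ± 0.032 in EV_B (SD, n = 4 each). TTP_H3 replicate 3 gave the highest ratio of its clone, 1.61, and the other TTP_H3 libraries were at 1.19 or above. CTGF thus had more reads than CYR61 in every TTP library and fewer in every EV library. An antisense gene, AL133346.1, overlaps CTGF, with 4.64 to 31.3 normalized counts over the libraries.

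**Figure D2:**
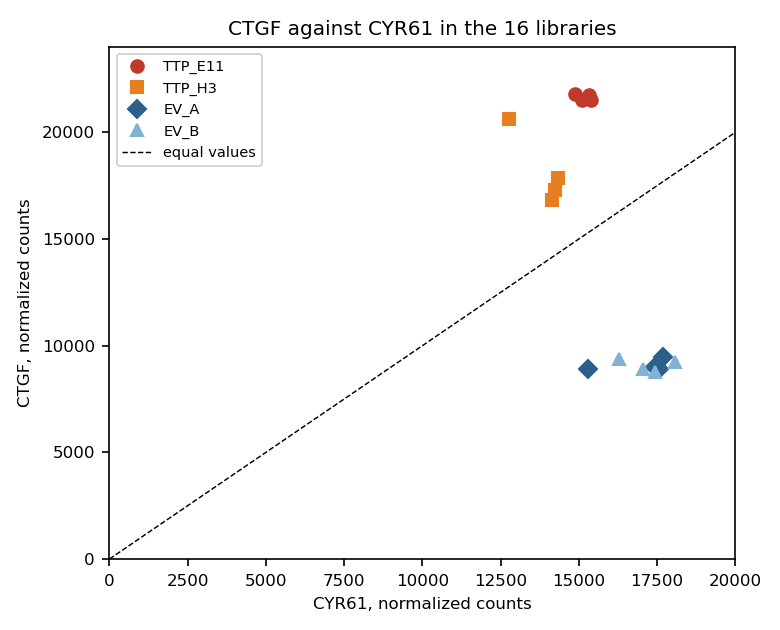
Normalized counts of CTGF (vertical) against CYR61 (horizontal), 1 point for each of the 16 libraries; the dashed line marks equal values. All TTP points lie above the line (clone means of the ratio 1.43 and 1.32) and all EV points below it (0.536 and 0.527).

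ANKRD1 (chr10:90912096-90921276, minus strand), a nuclear cofactor with ankyrin repeats and a strong YAP target, was modestly higher. It stood at 4444, 4826, 4748 and 5005 normalized counts in TTP_E11 and 4353, 4053, 3968 and 4232 in TTP_H3, against 3632, 3704, 3647 and 3646 in EV_A and 3544, 3754, 3607 and 3180 in EV_B. The groups did not overlap, and the log2 change was 0.31 (SE 0.0296, limma adjusted p = 8.01e-11), 1.24-fold. AMOTL2 (chr3:134355874-134375479, minus strand), a junction-associated angiomotin that binds YAP and restrains it, was lower. It stood at 2545, 2502, 2478 and 2477 normalized counts in TTP_E11 and 2755, 2794, 2271 and 2628 in TTP_H3, against 3489, 3303, 3232 and 3469 in EV_A and 3615, 3632, 3451 and 3655 in EV_B. The groups were again separate, with a log2 change of -0.45 (SE 0.0321, limma adjusted p = 2.31e-13) and a ratio of 0.734. A pseudogene on the same strand, RPL39P5, overlaps exons of AMOTL2 and had no values of its own. Strand cannot tell reads of this pair apart.

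The promoters of CTGF, ANKRD1 and AMOTL2, targets that moved in both directions, are shown because TEAD factors bind the motif GGAATG. The RefSeq stretches (GRCh38.p14) run from 250 bases before a start to 50 after it, were searched on both strands, and were found for 7 of 10 members, with 10 starts in all. GGAATG occurs in 14% of 35116 such promoters, at least 2 copies in 1.37% and at least 3 in 0.128%. CTGF (chr6:131951323-131951622, minus strand) held 3 copies, at 169, 104 and 95 bases before the start. ANKRD1 (chr10:90921038-90921337, minus strand) held 2, at 220 and 128 bases before it. A start of AMOTL2 (chr3:134374398-134374697, minus strand) held 1, on the other strand, at 69 bases, and its other start held 0. YAP1, LATS2 and 1 of the starts of AXL each held 1, and the starts of WWTR1 held 0. TGANTCA, a loose form of the AP-1 motif in which N is any base, was found in 7.71% of promoters. ANKRD1 held it at 195 bases before the start, as TGATTCA. Capitals mark GGAATG, its reverse complement and TGANTCA. CYR61, TEAD1 and TEAD4 are named only.
CTGF: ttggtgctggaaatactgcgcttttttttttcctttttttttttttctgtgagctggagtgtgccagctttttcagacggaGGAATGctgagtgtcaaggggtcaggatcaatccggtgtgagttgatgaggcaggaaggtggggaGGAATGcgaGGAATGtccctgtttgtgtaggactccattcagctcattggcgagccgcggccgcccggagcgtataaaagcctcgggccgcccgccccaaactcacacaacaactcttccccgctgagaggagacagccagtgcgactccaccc
ANKRD1: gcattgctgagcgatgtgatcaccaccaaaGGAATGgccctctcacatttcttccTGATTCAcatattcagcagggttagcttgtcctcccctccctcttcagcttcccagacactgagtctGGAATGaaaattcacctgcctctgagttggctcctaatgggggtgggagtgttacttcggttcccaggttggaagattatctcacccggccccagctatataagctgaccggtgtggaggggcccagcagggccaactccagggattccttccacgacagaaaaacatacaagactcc
AMOTL2: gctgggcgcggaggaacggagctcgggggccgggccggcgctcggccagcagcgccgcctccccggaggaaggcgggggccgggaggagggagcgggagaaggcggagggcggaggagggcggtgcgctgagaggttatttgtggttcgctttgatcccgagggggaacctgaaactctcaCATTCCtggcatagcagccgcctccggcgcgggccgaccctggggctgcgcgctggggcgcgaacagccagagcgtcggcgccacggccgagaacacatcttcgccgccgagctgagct

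Changes of AXL and LATS2 were small and turned on the clone, library or scaling. AXL (chr19:41219203-41261766, plus strand), a receptor tyrosine kinase and YAP target linked to invasion, stood at 30560, 31190, 30770 and 30340 normalized counts in TTP_E11 and 32520, 32820, 28010 and 30700 in TTP_H3, against 32550, 32200, 32390 and 31650 in EV_A and 38880, 38650, 37880 and 37550 in EV_B. The TTP libraries overlapped EV_A and lay below EV_B. The log2 change of AXL was -0.19 (SE 0.0235, limma adjusted p = 2.4e-08) against both EV clones, -0.06 (limma adjusted p = 0.0562) against EV_A alone and 0.00 (limma adjusted p = 0.961) after quantile normalization. With reads summed per clone it was -0.19 (edgeR adjusted p = 0.248). EV_B exceeded EV_A by 0.25 (limma adjusted p = 6.66e-07). An antisense gene, AC011510.1, overlaps AXL, with 3.03 to 25 normalized counts over the libraries. LATS2 (chr13:20973032-21061547, minus strand), the kinase that inactivates YAP and is itself induced by it, stood at 1438, 1499, 1496 and 1378 normalized counts in TTP_E11 and 1506, 1512, 1160 and 1348 in TTP_H3, against 1293, 1235, 1347 and 1216 in EV_A and 1324, 1306, 1272 and 1252 in EV_B. TTP_H3 replicate 3 lay below all EV libraries, and the other TTP libraries were above all of them. LATS2 had a log2 change of 0.14 (SE 0.0424, limma adjusted p = 0.00451), and with reads summed per clone it did not pass, at 0.15 (edgeR adjusted p = 0.167). In TTP_H3 alone it was 0.10 (limma adjusted p = 0.0885), and without replicate 3 of that clone it was 0.18 (limma adjusted p = 0.000147).

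**Figure D3:**
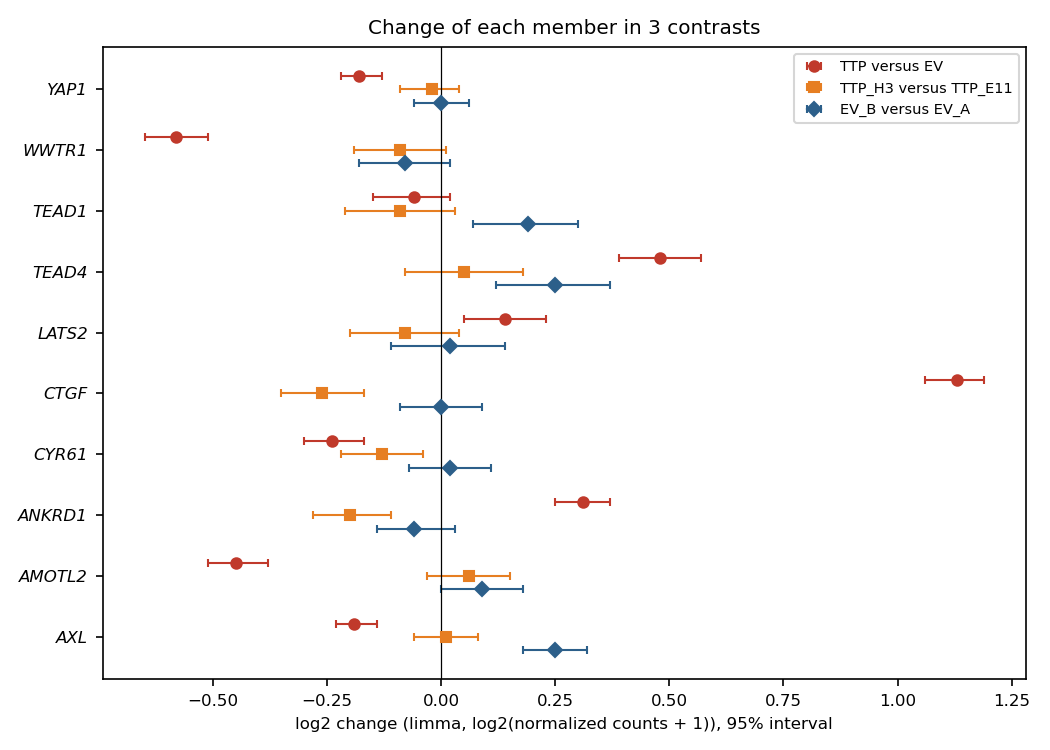
Log2 changes of the 10 members (points) with 95% intervals (bars) in 3 contrasts: TTP versus EV, TTP_H3 versus TTP_E11, and EV_B versus EV_A. For CTGF, at 1.13, and WWTR1, at -0.58, the change between arms lies beyond the differences within an arm, while for AXL, at -0.19 between arms and 0.00 after quantile normalization, EV_B and EV_A differ by 0.25.

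The TTP clones differed from each other in 3 members, all lower in TTP_H3, against 11.7% of all genes (5.32% lower). CTGF was lower in TTP_H3 than in TTP_E11 by a log2 change of -0.26 (limma adjusted p = 0.000258), ANKRD1 by -0.20 (limma adjusted p = 0.00187) and CYR61 by -0.13 (limma adjusted p = 0.0481). These are also the differences between the effects of the 2 clones, since both are set against the same EV libraries. Without TTP_H3 replicate 3 the difference was -0.32 for CTGF and -0.17 for ANKRD1, which still passed (limma adjusted p of 9.96e-12 and 0.00355), and CYR61 did not, at -0.09 (limma adjusted p = 0.121). AMOTL2 then passed, at 0.12 (limma adjusted p = 0.0127). ZFP36 itself had the higher mean in TTP_H3. The EV clones also differed in 3 members, AXL, TEAD4 and TEAD1, all higher in EV_B, against 36.8% of all genes (20.2% higher).

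Levels per kilobase of exon order the members within a clone. CTGF had 9256 normalized counts per kilobase in TTP_E11 and 7764 in TTP_H3, the highest of the members, against 3879 in EV_A and 3875 in EV_B, where CYR61 and AXL were above it. CYR61 had 6179 in TTP_E11 and 5650 in TTP_H3, against 6921 in EV_A and 7010 in EV_B, and AXL had 5958 in TTP_E11 and 6017 in TTP_H3, against 6248 in EV_A and 7419 in EV_B. The ranges of CYR61 and AXL overlapped in TTP_H3, EV_A and EV_B. Within a library, AXL was above CYR61 in every library of TTP_H3 and EV_B, while the order was mixed in EV_A. ANKRD1 was the fourth in each clone, with 2403 and 2098 per kilobase in TTP clones, against 1848 and 1779 in EV clones. TEAD1, at 653.5 to 748.6, and YAP1, at 589.7 to 673.1, came next, followed by AMOTL2 at 417.9 to 599.6. LATS2 and TEAD4 followed, with 247.6 to 260.5 and 250.3 to 259.2 in TTP clones, against 228.2 to 230.9 and 167.5 to 199.6 in EV clones. WWTR1 was the lowest in every clone, with 94.71 and 89.09 per kilobase in TTP clones, against 141.1 and 133.8 in EV clones.

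Other YAP/TAZ targets, a list of 16 genes that were all measured, gave 5 higher, 10 lower and 1 not passing in TTP clones, against 35.4% higher and 34.6% lower over all genes, with a median log2 change of -0.31 against 0 over all genes. By the stricter count 2 were higher and 7 lower, against 19% and 19.5% of all genes. F3, the coagulation factor receptor known as tissue factor, had 2676 ± 89.7 normalized counts in TTP_E11 and 3296 ± 324 in TTP_H3, against 6230 ± 52.8 in EV_A and 6690 ± 59.4 in EV_B (SD, n = 4 each), a log2 change of -1.12. MYOF, a membrane repair protein, changed by -0.75, DOCK5, an activator of Rac, by -0.61 and IGFBP3, which binds insulin-like growth factors, by -0.51. RBMS3, an RNA-binding protein, changed by 0.74 and CCDC80, a secreted matrix protein, by 0.56. RBMS3 was lower in TTP_H3 than in TTP_E11, by -0.40 (limma adjusted p = 0.00359). TTP_H3 replicate 3 was the lowest of its clone in RBMS3, at 393 normalized counts, and the difference without it was not tested. CCDC80 overlapped between arms through TTP_H3 replicate 3, at 3101 normalized counts against an EV maximum of 3323. Its EV clones differed by -0.36 (limma adjusted p = 0.00622). The EV clones differed in 9 of the 16, with 3 higher and 6 lower in EV_B, against 36.8% of all genes (20.2% higher and 16.6% lower).

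**Figure D4:**
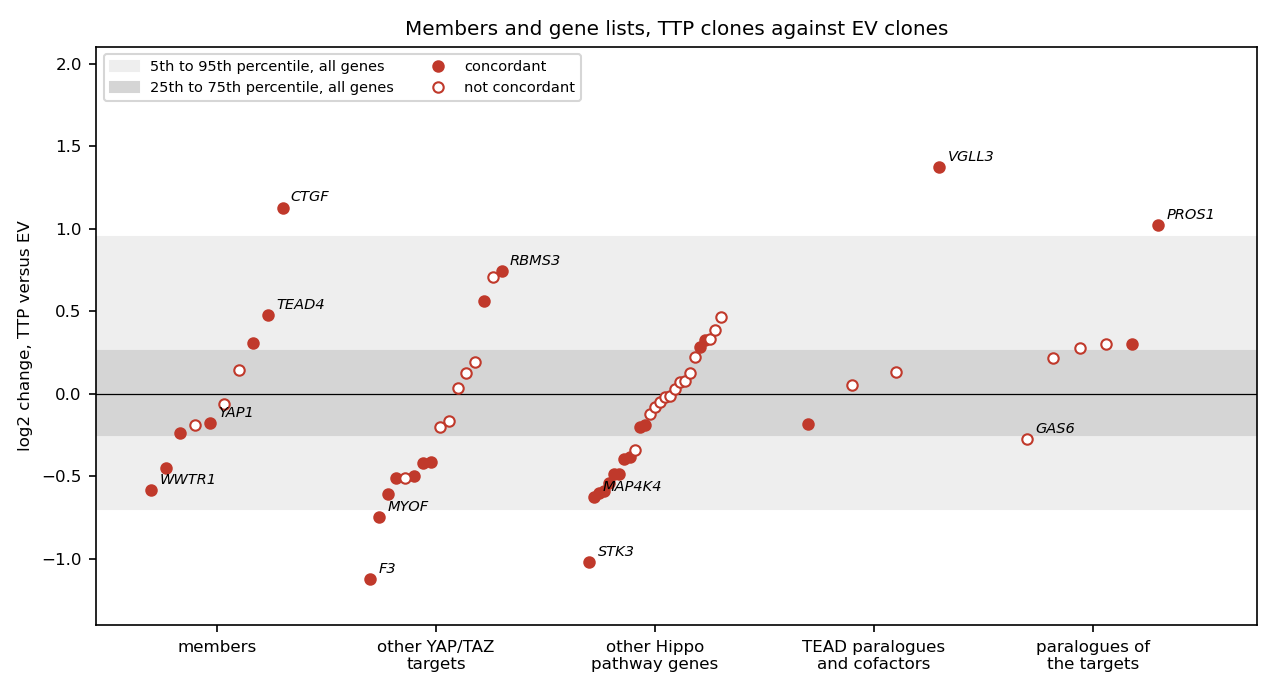
Log2 changes of TTP against EV clones for the 10 members and 4 lists. Each point is a gene, filled where all 4 clone contrasts passed in the same direction, and the bands hold the middle of all genes (25th to 75th and 5th to 95th percentile, -0.25 to 0.26 and -0.70 to 0.95). CTGF at 1.13 and F3 at -1.12 mark the ends of the YAP targets, STK3 at -1.02 is the lowest Hippo gene, and VGLL3 at 1.37 and PROS1 at 1.02 are the highest of the smaller lists.

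Of 28 other Hippo pathway genes 27 were measured, and AMOT was not analysed here; 8 rose, 13 fell and 6 did not pass, with a median of -0.08 against 0 over all genes. The 21 of 27 called lie near the 70% of all genes called (35.4% higher and 34.6% lower). By the stricter count 2 were higher and 11 lower, against 19% and 19.5% of all genes. STK3 encodes the kinase MST2 at the top of the core cascade. It had 307 ± 8.53 normalized counts in TTP_E11 and 294.5 ± 9.15 in TTP_H3, against 599.3 ± 29.9 in EV_A and 621.7 ± 39.6 in EV_B (SD, n = 4 each), a log2 change of -1.02 (limma adjusted p = 8.09e-20). No TTP library reached the EV range. Its paralogue STK4 changed by 0.22 (limma adjusted p = 2.17e-08) but did not pass the stricter count. In STK4, EV_B exceeded EV_A by 0.20 (limma adjusted p = 0.000171). The reads of STK3 over those of STK4 gave 0.153 ± 0.01 in TTP_E11 and 0.155 ± 0.0048 in TTP_H3, against 0.384 ± 0.033 in EV_A and 0.347 ± 0.025 in EV_B (SD, n = 4 each). MAP4K4, a kinase that also activates LATS kinases, changed by -0.63, the scaffolds WWC2 and WWC3 by -0.60 and -0.59, AJUBA, which restrains LATS kinases, by -0.54 and LATS1 by -0.49. By role, 2 of 6 genes of core kinases and their adaptors (SAV1, MOB1A and MOB1B) were higher and 3 lower, 4 of 12 upstream genes higher and 6 lower, 1 of 3 inhibitors of LATS higher and 1 lower, and 1 of 5 genes of the STRIPAK phosphatase complex higher and 3 lower, and 1 angiomotin gene did not pass. Each of these counts has the same background, 35.4% higher and 34.6% lower over all genes.

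TEAD2, TEAD3 and the vestigial-like cofactors, which bind TEAD factors in competition with or in place of YAP, were measured in 4 of 6 cases, with VGLL1 and VGLL2 not analysed here. VGLL3 had 325.3 ± 33.4 normalized counts in TTP_E11 and 375.9 ± 96.1 in TTP_H3, against 123.8 ± 16.6 in EV_A and 142.3 ± 13.5 in EV_B (SD, n = 4 each), a log2 change of 1.37 (limma adjusted p = 1.52e-08). TEAD3 changed by -0.18 (limma adjusted p = 8.09e-07) and VGLL4, a repressor of YAP-TEAD, by 0.13 (limma adjusted p = 0.0113), while TEAD2 had a log2 change of 0.05 (limma adjusted p = 0.34). Against EV_A alone VGLL4 did not pass, at 0.07 in TTP_E11 and -0.04 in TTP_H3 (limma adjusted p of 0.358 and 0.577). Of 10 paralogues and ligands related to the targets 6 were measured, with WISP1, WISP2, WISP3 and ANKRD2 not analysed here. PROS1, a ligand of the TAM receptor family to which AXL belongs, had 874.1 ± 41.2 normalized counts in TTP_E11 and 675.8 ± 41.1 in TTP_H3, against 377.3 ± 12.8 in EV_A and 381.4 ± 43.2 in EV_B (SD, n = 4 each), a log2 change of 1.02 (limma adjusted p = 8.73e-19). GAS6, the ligand of AXL, had a log2 change of -0.28 (limma adjusted p = 0.000841), and its TTP and EV libraries overlapped. Its level in EV_B was below that in EV_A, at -0.30 (limma adjusted p = 0.0112). GAS6 did not pass against EV_B alone, at -0.16 in TTP_E11 and -0.09 in TTP_H3 (limma adjusted p of 0.119 and 0.379). The receptors TYRO3 and MERTK changed by 0.30 and 0.22, and ANKRD23 had a log2 change of 0.28 that did not pass (limma adjusted p = 0.27). Against EV_B alone MERTK did not pass, at 0.08 in TTP_E11 and 0.19 in TTP_H3 (limma adjusted p of 0.466 and 0.0748). NOV (CCN3) changed by 0.30 but turned on a low EV_B, at -0.61 against EV_A (limma adjusted p = 5.38e-08). Against EV_A alone NOV was at 0.14 in TTP_E11 and -0.15 in TTP_H3 (limma adjusted p of 0.0766 and 0.0646).

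**Figure D5:**
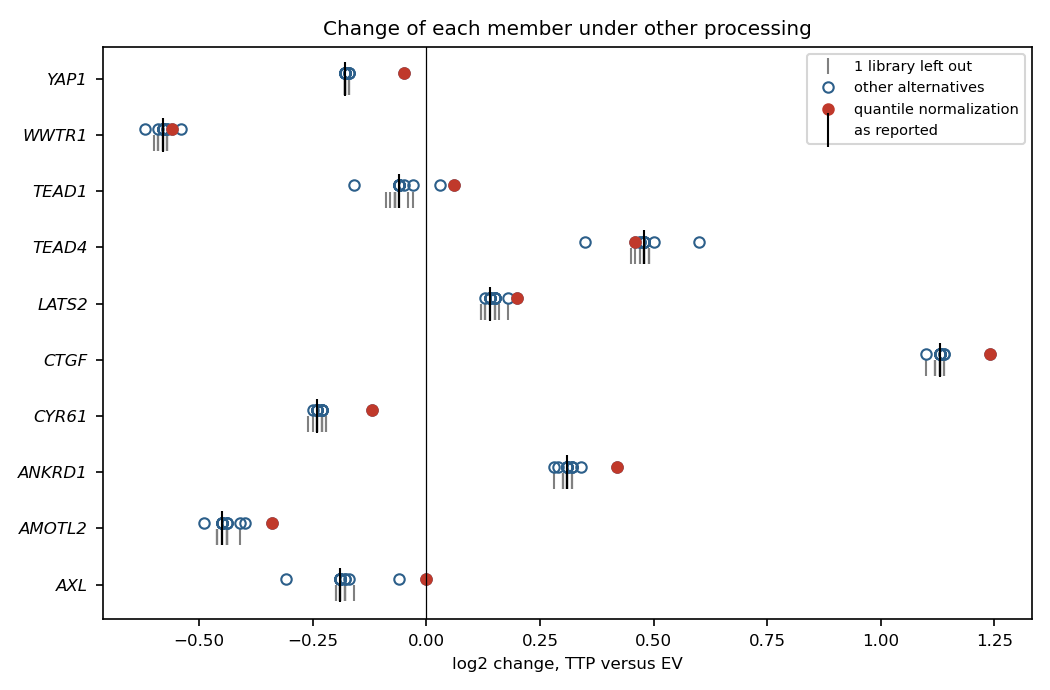
Log2 changes of TTP against EV clones for the 10 members under 29 alternatives; grey ticks leave out 1 library, open circles are other alternatives, red points are quantile normalization and black ticks the values as reported. CTGF stays between 1.1 and 1.24 and WWTR1 between -0.62 and -0.54, while AXL spans -0.31 to 0.00 and TEAD1 spans -0.16 to 0.06.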

How the data were processed

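RNA of 16 cultures was sequenced after library preparation with a NEBNext Ultra II kit, per the labels' protocols. Per the submitters' processing notes, the tools were STAR 2.5.2b, Trimmomatic 0.36, Subread 1.5.2, featureCounts and DESeq2 on GRCh38, without roles or settings (annotation not given in the sources used here). In 1 file the authors deposited a normalized signal per gene and library (normalized counts), which by its values is the number of reads divided by 1 size factor per library. Per the file headers the file also holds the authors' log2 fold change and p-value. Values were whole multiples of what 1 read is worth, to a tolerance of 0.001 (100% of them). That step was near 1 in TTP_H3 replicates 1 and 3, at 1.009 and 0.9975, and there too 100% of values were whole multiples of it.

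The table was tested with limma 3.58.1 in R 4.3.3 (trend, robust) on log2(value + 1), with all 16 libraries in 1 fit of 4 clone groups, no filter, and Benjamini-Hochberg adjustment over 14857 genes at 0.05. The log2 scale with this pseudocount understates changes of genes with few reads. Alternatives included count models on the reads so obtained (DESeq2 1.42.0 and edgeR 4.0.16), other scalings, filters and pseudocounts, single EV clones as control, sums per clone and leaving out each library. The method was tested on simulated data that held no differences between clones of an arm. Such data cannot speak to variation from clone to clone. Named genes were all members, ZFP36, up to 6 genes per list with the largest change that passed in all 4 clone contrasts, every measured gene of the 2 shorter lists, and the 3 genes most like CTGF and YAP1. The members and lists were chosen with earlier results of these data known. Same-numbered libraries of different clones had deviations correlated between -0.0883 and 0.0962, so the numbers do not pair them. Gene positions and 3′ UTRs are from GENCODE 29 on GRCh38, which matched 14820 listed genes, and promoters from RefSeq. Counting error of the lowest member value, 313 reads, is 5.65%.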

Additional observations from a re-analysis of the deposited data

Results flagged for a closer look

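In 4 of the 40 groups of 4 libraries (10 members in 4 clones), 1 library stood apart from its clone by Dixon's criterion, which chance gives in about 1 in 20 groups. These were WWTR1 in TTP_E11 replicate 2 at 848.5 normalized counts, TEAD4 in EV_A replicate 3 at 390.6, CYR61 in TTP_H3 replicate 3 at 12780 and CYR61 in EV_A replicate 3 at 15290. Between the effects of the 2 TTP clones, tested in the same limma fit, the difference of TTP_H3 and TTP_E11 was -0.26 on the log2 scale for CTGF, -0.13 for CYR61 and -0.20 for ANKRD1.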

How the results depend on the processing

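CTGF, WWTR1, TEAD4, ANKRD1 and AMOTL2 kept their direction and passed in all 29 alternatives for TTP against EV. With reads summed per clone (edgeR, 2 sums against 2), 2 members were lower in place of 5, 2 other targets higher in place of 5 and 2 other Hippo genes higher in place of 8; YAP1, CYR61, AXL and LATS2 no longer passed, at log2 changes of -0.17, -0.23, -0.19 and 0.15 (adjusted p of 0.118, 0.107, 0.248 and 0.167). That fit has fewer samples, and its error includes variation from clone to clone, which that of the main fit does not. Over all genes 4375 passed in place of 10405. With EV_B alone as control, 3 other targets were higher. After quantile normalization AXL was at 0.00 against both EV clones and TTP_H3 at 0.01; the cause was not tested. CYR61 between TTP clones lost its call in 14 of 25 alternatives. With the replicate block, CTGF changed by 1.13 (limma adjusted p = 1.51e-15), 10354 genes passed in place of 10405, and TEAD1 in TTP_H3 passed at -0.11 (limma adjusted p = 0.0277). A library matched its own number best in 9 of 48 comparisons with another clone. The fits with summed reads, 1 EV clone or 2 groups give no contrast between clones.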

Other observations

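Over the 16 libraries, among 11878 genes with a mean of at least 50 normalized counts, the levels most like that of CTGF were those of USP49, a deubiquitinase (Pearson r 0.995), SIRT2, a deacetylase (0.994), and NSMF (0.993). The levels most like that of YAP1 were those of STK3 (0.984), TMED4, a protein of vesicle transport (0.982), and B4GALT4, a galactosyltransferase (0.981). The libraries of a clone share a source and the arms differ, so these values describe the split into clones and carry no test.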
